A study of Rattus norvegicus with 24 samples.

Results

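The inhibin, activin and follistatin axis was followed here in rat testis through 10 genes: the subunit genes Inha, Inhba and Inhbb, the activin-binding proteins Fst and Fstl3, the receptors Acvr1, Acvr2a and Acvr2b, the related hormone Amh and the decoy receptor Bambi. Every probe set that the platform annotation assigns to 1 of these symbols was taken, which gave 15 probe sets of the 20826 with a single symbol, or 10 of 14217 named genes, and all 10 genes had at least 1. The axis was chosen from measured values: the higher Fst and lower Inhbb intensity in PND35 pups given DBP after fetal oil had been seen in these data. Values of that contrast are therefore given as a description; a count past the threshold is printed for it beside its background, and nothing is read from it.

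Testes of male Fisher 344 rats, without genetic modification, were measured on Affymetrix Rat230_2 arrays, 24 in all, in 6 groups of 4. The 4 GD20 oil samples are fetal testes of gestational day 20 from dams gavaged daily with corn oil from gestational day 12 to 20, and the 4 GD20 DBP samples come from dams gavaged over the same days with dibutyl phthalate (DBP), a plasticizer, at 50 mg/kg in corn oil. The GD20 DBP samples are labelled as taken 6 h after the last dose, and the GD20 oil samples carry no such interval. The other 16 samples are testes of pups at postnatal day 35 (PND35), named by the fetal and then the postnatal exposure. The oil-oil and oil-DBP pups had oil in utero, and the DBP-oil and DBP-DBP pups had DBP in utero at 50 mg/kg. At PND35 each pup received a single gavage of corn oil or of 500 mg/kg DBP, and was killed 6 h later. Each array carries its own dam or pup number, and 1 array, GD20 oil dam 2, is labelled as pooled from several samples.

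Inhibins and activins are dimers built from shared subunits. The alpha subunit joined to a beta subunit gives inhibin, and a pair of beta subunits gives activin. Activins bind type 2 receptors, which recruit a type 1 receptor and phosphorylate Smad proteins, while inhibin competes for the type 2 receptors, and follistatin and its relative FSTL3 bind activin outside the cell and hold it from its receptors. In the testis the Sertoli cells of the seminiferous tubule are a main source of inhibin, which lowers FSH release from the pituitary, and inhibin B is the form of the male circulation. AMH, made by immature Sertoli cells, causes the Müllerian duct to regress and declines at puberty.

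The labelled tissue was checked on marker genes fixed for each cell type. All 11 measured Sertoli markers had a mean intensity of at least 16 in both GD20 groups, and all but Krt18 in the oil-oil pups. This is a low bar, since only 12.1% to 19.4% of an array's probe sets were below 16. The 3 measured genes of epididymis, adrenal and kidney also met it in GD20 oil, so it does not tell tissues apart. The summed intensity of 4 germ cell genes lay between 1611 and 1940 in GD20 oil and between 85922 and 108515 in oil-oil pups. A sum takes each gene's brightest probe set at that age, which can differ between the ages. Arrays were scaled alike before deposit. Poly-A spike-ins, control transcripts of bacterial origin, had a mean log2 level of 8.24 to 8.54 in GD20 oil, while dams 19 and 21 of GD20 DBP stood apart at 6.67 and 6.50. At PND35 they lay between 5.78 and 6.29 in both fetal-oil groups and between 7.32 and 7.58 in DBP-DBP, and were split in DBP-oil, at 6.04 and 6.10 in pups 123 and 127 and 7.56 and 7.53 in pups 132 and 134. In whole testis, fewer cells of a type and less RNA per cell cannot be told apart.

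With age, 14 of the 15 probe sets passed the test between the oil groups, 11 lower and 3 higher at PND35. After postnatal DBP in pups with fetal DBP, both Fst probe sets and the brighter Inhba probe set were higher and Inhbb was lower. After fetal DBP alone no probe set of the axis passed at either age. The tests below are limma's moderated test on log2(intensity + 16), two-sided, with p-values adjusted by Benjamini-Hochberg over 31042 probe sets and a threshold of 0.05; errors of log2 differences are standard errors (SE) and those of intensities standard deviations (SD).

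Of the 10 genes, 8 have a promoter entry in RefSeq (build GRCr8), and the 250 bases before the gene's start were read from it. Fst and Acvr1 have no entry, so nothing is said of their promoters. The 4 shown are those of the ligand genes: Inhba and Inhbb, which went opposite ways after postnatal DBP, and Inha and Amh, which like them were lower at PND35 than in the fetus. Capitals mark matches to any of 7 motifs searched on both strands: AP-1 (TGANTCA), the cyclic AMP response element (TGACGTCA) and its variant (TGCGTCA), NR5A1 (AAGGTCA), the letters read by GATA factors (GATAA), the GC box (GGGCGG) and the TATA box (TATAAA). The sequences run 5′ to 3′ on the gene's strand, for Inhba chr17:53804509-53804758, minus strand, for Inhbb chr13:33089374-33089623, minus strand, for Inha chr9:84442859-84443108, plus strand, and for Amh chr7:9559868-9560117, minus strand.
Inhba: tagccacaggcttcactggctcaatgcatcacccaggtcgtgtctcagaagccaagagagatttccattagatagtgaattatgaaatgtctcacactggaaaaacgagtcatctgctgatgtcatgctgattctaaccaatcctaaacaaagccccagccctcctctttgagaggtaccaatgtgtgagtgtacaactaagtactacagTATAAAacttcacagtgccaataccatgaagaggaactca
Inhbb: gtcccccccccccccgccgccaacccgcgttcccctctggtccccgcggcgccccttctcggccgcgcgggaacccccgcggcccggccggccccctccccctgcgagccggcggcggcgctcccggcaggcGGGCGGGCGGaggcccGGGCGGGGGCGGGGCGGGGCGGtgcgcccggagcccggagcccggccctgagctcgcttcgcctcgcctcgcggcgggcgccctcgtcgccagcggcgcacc
Inha: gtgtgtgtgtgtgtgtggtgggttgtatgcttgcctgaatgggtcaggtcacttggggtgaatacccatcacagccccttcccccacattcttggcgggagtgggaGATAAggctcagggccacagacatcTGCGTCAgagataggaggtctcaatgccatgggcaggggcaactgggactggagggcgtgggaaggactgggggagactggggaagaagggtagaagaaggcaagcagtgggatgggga
Amh: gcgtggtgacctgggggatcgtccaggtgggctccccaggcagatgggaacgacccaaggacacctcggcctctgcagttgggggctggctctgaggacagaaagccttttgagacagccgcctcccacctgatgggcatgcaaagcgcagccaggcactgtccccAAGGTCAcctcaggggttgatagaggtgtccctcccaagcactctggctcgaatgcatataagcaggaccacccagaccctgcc

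The promoters of the beta subunit genes differ in base composition, with 43.6% G and C for Inhba and 86.8% for Inhbb. The Inhba window holds a TATA box whose first base lies at -40 from the start, a motif found in 12.9% of the 33469 promoter windows of this length. The Inhbb window has no TATA box and 6 GC boxes. Their first bases lie at -118 and -114 and, after a gap, at -102, -96, -91 and -86. At least 1 GC box is held by 30.5% of all windows. The Inha window has the variant cyclic AMP response element at -119, held by 1.66% of windows, and a GATA match at -144, held by 23.5%. The Amh window has an NR5A1 match at -84, held by 3.99% of windows. The AP-1 letters (6.34% of windows) and the full cyclic AMP response element (1.59%) are in none of the 8 windows, which says only that these letters are not there. Every match is a description of the sequence.

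Inhba, the beta A subunit of activin A and inhibin A, had the widest range of the axis. Its brighter probe set, 1383486_at, read 6737, 5663, 6209 and 6241 in GD20 oil and 24.0, 8.61, 46.1 and 44.0 in oil-oil pups. The fetal arrays all lay above every pubertal array, and the log2 difference of PND35 to GD20 was -7.15 ± 0.228 (SE, n = 4 and 4, limma adjusted p = 4.09e-12). In GD20 DBP it read 5759, 5128, 6377 and 5298, which overlaps GD20 oil (difference -0.14 ± 0.084, limma adjusted p = 0.55).

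At PND35 the same Inhba probe set was low in every pup given oil. It read 6.05, 40.8, 24.7 and 36.8 in DBP-oil pups and 113, 115, 500.3 and 381 in DBP-DBP pups, so that the lowest DBP-DBP pup was above the highest DBP-oil pup. The means were 27.1 ± 15.6 and 277 ± 195 (SD, n = 4 each), and the log2 difference was 2.56 ± 0.53 (SE, limma adjusted p = 0.0038). The Inhba size depends on how the dim DBP-oil values are handled, 1 of which is below 16: the difference was 3.25 with a pseudocount of 1 and 1.71 with 64, and the ratio of means was 10.2. Without DBP-oil pups 123 and 127, whose spike-ins were low, it was 2.40 ± 0.65 and no longer passed (limma adjusted p = 0.058). The oil-DBP pups, part of the contrast that chose the axis, read 184, 587, 66.5 and 408 against 8.61 to 46.1 in oil-oil, a difference of 2.48. Even the highest pubertal value of this probe set, 587, was below the lowest fetal one, 5128.

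The other Inhba probe set, 1369012_at, was dim at PND35, between 2.14 and 69.9 over the 16 arrays. It did not pass after postnatal DBP, and read 19.9, 3.93, 14.8 and 28.0 in DBP-DBP and 10.8, 37.2, 2.14 and 3.31 in DBP-oil pups (difference 0.22 ± 0.40, limma adjusted p = 0.87). Inhba 1369012_at was below 16 in 2 of 4 DBP-DBP and 3 of 4 DBP-oil arrays, so it bears little on the postnatal response. Both Inhba probe sets were lower at PND35 than at GD20 (-1.75 ± 0.32 for 1369012_at, limma adjusted p = 2.33e-04). In GD20 DBP it read 76.5 and 56.1 in dams 16 and 18 and 431 and 270 in dams 19 and 21, the arrays with low spike-ins, and 123 to 165 in GD20 oil. The difference was 0.04 with all dams and -1.02 without dams 19 and 21 (limma adjusted p = 0.98 and 0.065).

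Inhbb, the beta B subunit and part of inhibin B, moved the other way at PND35. It read 1376, 1449, 1668 and 1643 in DBP-oil and 860, 985, 554 and 789 in DBP-DBP pups, with no overlap. The means were 1534 ± 144 and 797 ± 181 (SD, n = 4 each), and it fell by 0.98 on the log2 scale (SE 0.15, limma adjusted p = 2.11e-04). Without DBP-oil pups 123 and 127 the difference was -1.06 ± 0.20 (limma adjusted p = 0.0035). In the oil-DBP pups, whose low Inhbb helped to choose the axis, it read 730.5, 692, 1039 and 840 against 1322, 1310, 1380 and 1723 in oil-oil.

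In the fetal testis Inhbb had the smallest limma p of the 15 probe sets. It read 4860, 4877, 5075 and 5166 in GD20 oil and 3512, 4258, 4037 and 4115 in GD20 DBP, so that every exposed sample was below every control. The share of all probe sets that separate so at GD20 was not counted. The difference of -0.33 ± 0.072 (SE, n = 4 and 4) did not pass (limma adjusted p = 0.084). Fetal Inhbb passed in 2 of 16 alternatives, quantile normalization (-0.38, limma adjusted p = 0.034) and without dam 18 (-0.36, limma adjusted p = 0.048). Over all 16 the Inhbb difference ran from -0.38 to -0.27 and the limma adjusted p from 0.034 to 0.30. Beside it, the summed intensity of 4 germ cell genes was 1920 to 5572 in GD20 DBP and 1611 to 1940 in GD20 oil. Of 11 Sertoli markers 0 passed by limma and 5 had an unadjusted p under 0.05, and of the 4 germ cell genes 0 and 2. A limma unadjusted p under 0.05 was also held by Inhbb and by 11.8% of all probe sets. Without dams 19 and 21 the Inhbb difference was -0.37 (limma adjusted p = 0.084). The part of these cells in the fetal Inhbb values was not tested. With age Inhbb fell by 1.80 (SE 0.083, limma adjusted p = 1.78e-10), from 4995 ± 150 in GD20 oil to 1434 ± 196 in oil-oil (SD, n = 4 each). Its group means ran from GD20 oil through GD20 DBP, DBP-oil and oil-oil to oil-DBP and DBP-DBP; the values of the first pair do not overlap, while those of DBP-oil and oil-oil, and of oil-DBP and DBP-DBP, do.

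Inha, the alpha subunit that makes a dimer an inhibin, was bright at both ages. It read 7921, 7433, 7955 and 7814 in GD20 oil and 3598, 2916, 3942 and 4249 in oil-oil, and fell by 1.09 with age (SE 0.095, limma adjusted p = 1.63e-07). It read 3471, 3557, 4071 and 3584 in DBP-DBP and 3441, 3638, 3296 and 3220 in DBP-oil pups, which overlap, and the difference of 0.09 had a 95% interval from -0.14 to 0.32 (limma adjusted p = 0.79). While Inhbb differed by nearly 1 log2 unit between these groups, Inha did not pass. In oil-DBP it read 3608, 4534, 4971 and 5171, overlapping oil-oil. In GD20 DBP dams 19 and 21 gave the highest fetal values, 9461 and 8443, and dams 16 and 18 read 7466 and 7460 (difference from oil 0.07 ± 0.086, limma adjusted p = 0.80).

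**Figure D1:**
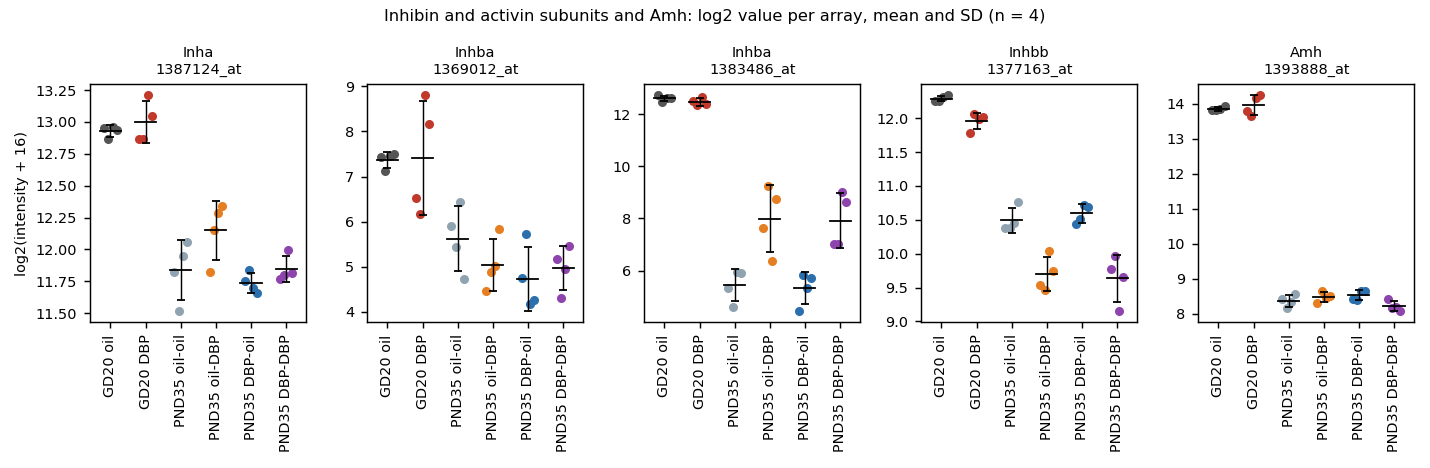
Each point is the log2(intensity + 16) of 1 array for Inha, both Inhba probe sets, Inhbb and Amh, by group on the x axis, with the mean (line) and SD (bars) of 4 arrays; each panel has its own scale. Inhba 1383486_at is above 12 in all 8 fetal arrays and rises from the pubertal oil groups to both groups given DBP at PND35, where Inhbb is lower.

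Fst encodes follistatin, which binds activin almost irreversibly and which activin signalling itself induces in several cell types. Its probe set 1372750_at read 65.9, 50.5, 26.6 and 49.2 in DBP-oil and 653, 627, 1192 and 658 in DBP-DBP pups. Every DBP-DBP pup stood far above every DBP-oil pup, at means of 782 ± 274 and 48.0 ± 16.2 (SD, n = 4 each), a ratio of 16.3. The log2 difference was 3.61 ± 0.30 (SE, limma adjusted p = 3.52e-08), the largest of the 15 probe sets in this contrast. The highest pup, 133, was also the highest of its group for Inhba 1383486_at and the lowest for Inhbb.

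The other Fst probe set gave the same direction. Probe set 1387843_at read 40.3, 75.1, 45.3 and 69.3 in DBP-oil and 511, 472, 713 and 455 in DBP-DBP, a difference of 2.90 ± 0.40 (SE, limma adjusted p = 5.23e-05). Without DBP-oil pups 123 and 127 the Fst differences were 3.88 ± 0.36 and 2.93 ± 0.51 (limma adjusted p = 1.77e-06 and 0.0022). In the contrast that chose the axis, oil-DBP pups read 646, 1598, 704 and 1056 on 1372750_at against 16.9, 60.8, 55.2 and 45.3 in oil-oil, and 425, 943, 612 and 816 on 1387843_at against 132, 91.5, 54.0 and 3.85.

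On 1372750_at the fetal level of Fst lay between those of the pubertal groups. GD20 oil read 152, 153, 143 and 184 and GD20 DBP 178, 184, 146 and 186, which overlap (difference 0.12 ± 0.14, limma adjusted p = 0.79). The 8 pubertal pups given DBP read at least 627 and the 8 given oil at most 65.9, with the 8 fetal arrays between. With age it fell by 1.59 in the oil groups (SE 0.27, limma adjusted p = 1.26e-04). On 1387843_at the age difference of -1.06 ± 0.48 did not pass (limma adjusted p = 0.065). That probe set spread from 3.85 to 132 among the oil-oil pups, and the Fst difference turned on them. It was -1.43 without pup 104 and -1.28 without pup 110, which passed (limma adjusted p = 0.016 and 0.048), and -0.47 without pup 120, the lowest, which did not (limma adjusted p = 0.14).

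Fstl3, a follistatin relative that also binds activin, did not share the response of Fst. On 1379440_at it read 1374, 1315, 1338 and 1375 in DBP-oil and 1086, 1372, 917 and 1092 in DBP-DBP (difference -0.30 ± 0.11, limma adjusted p = 0.14). It passed only without pup 128, the single DBP-DBP pup within the DBP-oil range (-0.42, limma adjusted p = 0.016). On 1370120_at the means were 512 ± 62.8 and 411 ± 37.5 (SD; difference -0.32 ± 0.12, limma adjusted p = 0.18). With age both Fstl3 probe sets rose, by 1.44 ± 0.12 on 1379440_at and 1.37 ± 0.14 on 1370120_at (limma adjusted p = 9.75e-08 and 7.58e-07). On 1379440_at GD20 oil read 406, 581, 431 and 420 and oil-oil 1336, 1056, 1271 and 1414, with no overlap. Between the oil groups Fst 1372750_at thus fell where Fstl3 rose.

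Acvr1, or ALK2, is a type 1 receptor that answers BMPs and AMH and can bind activin. It had 3 probe sets. All 3 were lower with age, at log2 differences of -3.18, -1.79 and -2.51 on 1379217_at, 1385069_at and 1398277_at (limma adjusted p at most 5.39e-08). The brightest, 1379217_at, read 1450, 1544, 1226 and 1151 in GD20 oil and 82.5, 84.6, 198 and 214 in oil-oil. After postnatal DBP all 3 had a higher mean in DBP-DBP than in DBP-oil, but none passed. The Acvr1 differences were 0.52 ± 0.27, 0.40 ± 0.18 and 0.65 ± 0.23 (limma adjusted p = 0.37, 0.28 and 0.12). On 1379217_at the groups did not overlap, at 249 to 311 in DBP-DBP and 114 to 241 in DBP-oil, and on the others they did. The share of all probe sets that separate so was not counted. In oil-DBP 1379217_at read 302, 274, 294 and 471.

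Acvr2a and Acvr2b, the type 2 receptors that bind activin first, moved in opposite directions with age. Acvr2a read 275, 313, 296 and 352 in GD20 oil and 457, 474, 468 and 457 in oil-oil, and it rose by 0.57 ± 0.10 (limma adjusted p = 2.05e-04). Acvr2b read 319, 347, 398 and 310 in GD20 oil and 159, 95.4, 146 and 176 in oil-oil, and it fell by 1.19 ± 0.17 (limma adjusted p = 3.25e-05). After postnatal DBP in pups with fetal DBP, Acvr2a differed by 0.16 (95% interval -0.08 to 0.41) and Acvr2b by -0.31 (95% interval -0.73 to 0.10), and neither passed (limma adjusted p = 0.59 and 0.51). The 4 Acvr2b values of DBP-DBP, 94.4 to 128, were all below those of DBP-oil, 132 to 155. How many of all probe sets separate in this way was not counted.

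Amh, the Sertoli cell hormone of the fetal testis, had the largest fall with age after Inhba 1383486_at. It read 14408, 14432, 14761 and 15732 in GD20 oil and 325, 272, 310 and 366 in oil-oil, a ratio of 46.6, and fell by 5.48 (SE 0.080, limma adjusted p = 6.96e-15). In GD20 DBP it read 14349 and 12848 in dams 16 and 18 and 18321 and 19396 in dams 19 and 21 with low spike-ins, so that the GD20 oil arrays lay between the pairs. The difference from oil was 0.11 ± 0.12 with all dams and -0.13 ± 0.079 without dams 19 and 21 (limma adjusted p = 0.78 and 0.59). At PND35 it read 325, 274, 279 and 258 in DBP-DBP and 331, 319, 391 and 384 in DBP-oil, a difference of -0.33 ± 0.12 that did not pass (limma adjusted p = 0.13).

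Bambi encodes a pseudoreceptor that lacks the kinase domain and dampens activin, BMP and TGF-beta signals. It read 1338, 1299, 1427 and 1370 in GD20 oil and 670, 687, 679 and 806 in oil-oil, and fell by 0.92 ± 0.077 with age (limma adjusted p = 1.05e-07). In DBP-DBP it read 746, 662, 644 and 604 and in DBP-oil 724, 862, 745 and 697, which overlap (difference -0.20 ± 0.10, limma adjusted p = 0.37). Its group means at PND35 lay between 625 in oil-DBP and 757 in DBP-oil.

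**Figure D2:**
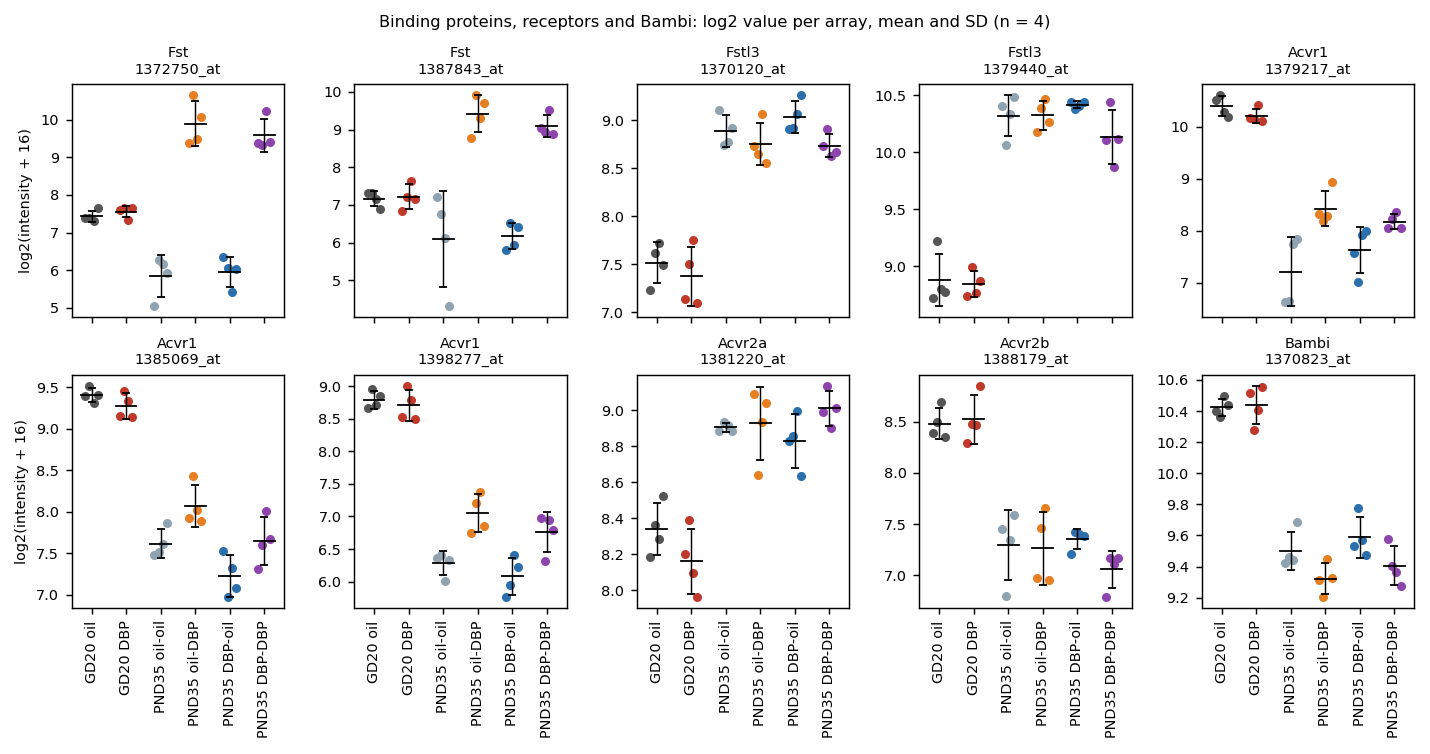
Each point is the log2(intensity + 16) of 1 array for Fst, Fstl3, the receptors and Bambi, by group on the x axis, with the mean (line) and SD (bars) of 4 arrays; each panel has its own scale. Both Fst probe sets are highest in the oil-DBP and DBP-DBP pups, while Fstl3 and Acvr2a are higher and the other receptor probe sets and Bambi are lower at PND35 than at GD20.

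For the postnatal dose after fetal DBP, 4 of the 15 probe sets passed, 3 higher and 1 lower, where 5.23% of all 31042 probe sets passed. The median log2 difference of the 15 was 0.16, and that of all probe sets -0.06. Without DBP-oil pups 123 and 127, which leaves 1 spike-in level in both groups, 3 of 15 passed. The 8 arrays compared are not those that chose the axis, but the estimate of the spread was shared over all 16 PND35 arrays. In a fit of the 8 arrays alone, added after seeing the data, 4 of 15 passed, at limma adjusted p of 3.99e-07 and 4.72e-07 for Fst, 0.0026 for Inhba 1383486_at and 7.50e-04 for Inhbb. For the postnatal dose after fetal oil, 5 of 15 passed, with 8.92% of all, and nothing is read from that count. The differences there were 3.98 and 3.26 for Fst, 2.48 for Inhba 1383486_at, 1.14 for Acvr1 1379217_at and -0.86 for Inhbb.

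Whether the fetal exposure altered the response was asked of the interaction of both exposures, in which 0 of 15 passed, with 0% of all probe sets. By limma's unadjusted p under 0.05, 1 of 15 and 1466 of 31042 would pass, and the 1 was Amh (-0.37 ± 0.17, unadjusted p = 0.037). The interaction for Fst 1372750_at was -0.38 with a 95% interval of -1.25 to 0.49, for Inhba 1383486_at 0.08 (-1.47 to 1.64) and for Inhbb -0.12 (-0.57 to 0.33). The Inhba interval is the widest of these. The interaction uses the oil-DBP and oil-oil arrays, whose contrast chose the axis.

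**Figure D3:**
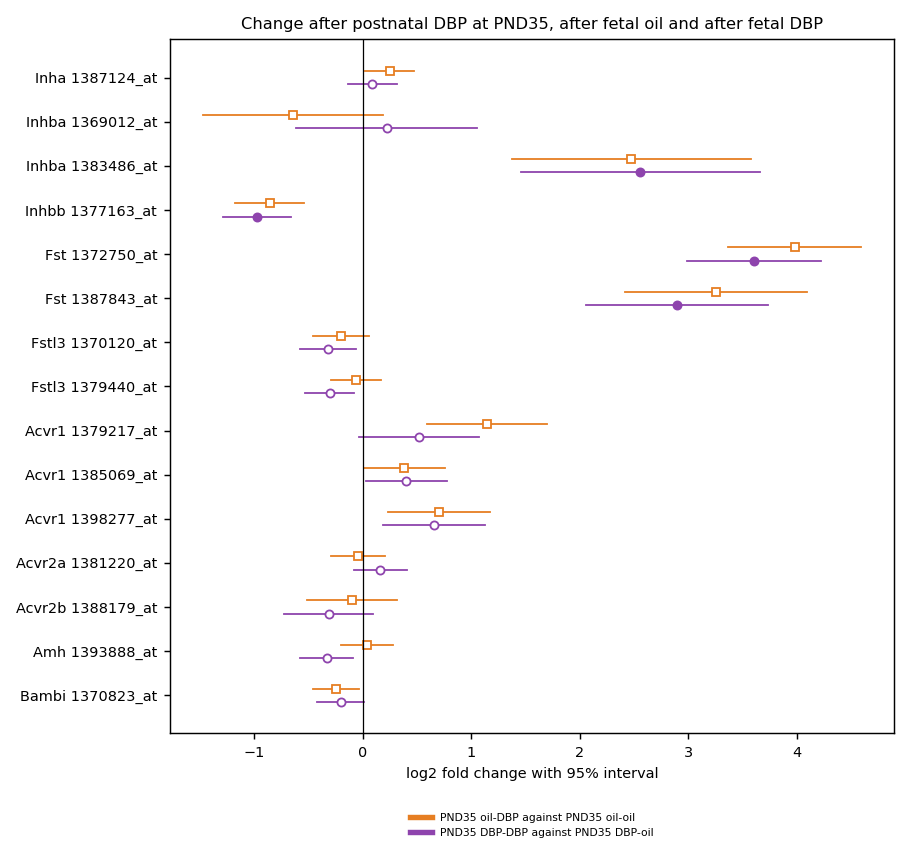
Log2 difference of each probe set (x axis, point with 95% interval) after 500 mg/kg DBP at PND35, in pups with fetal oil and pups with fetal DBP; circles are filled where the contrast after fetal DBP passed an adjusted p of 0.05, and open squares show the contrast after fetal oil, which chose the axis and carries no test. Fst and Inhba 1383486_at lie at 2.48 to 3.98 and Inhbb at -0.86 and -0.98 in both.

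Fetal DBP by itself left no probe set of the axis past the threshold. At GD20 0 of 15 passed, with 0.441% of all probe sets, and 1 of 15, Inhbb, had a limma unadjusted p under 0.05, as did 11.8% of all. In DBP-oil against oil-oil pups 0 of 15 passed, with 0.00322% of all, and 2 had a limma unadjusted p under 0.05: Inhba 1369012_at (-0.91 ± 0.40) and Acvr1 1385069_at (-0.41 ± 0.18), beside 7.41% of all. In DBP-DBP against oil-DBP pups 0 of 15 passed, with 0% of all, and 2 had a limma unadjusted p under 0.05: Inha (-0.28 ± 0.11) and Acvr1 1385069_at (-0.39 ± 0.18), beside 8.99% of all. These comparisons share their control or treated arrays with the postnatal ones. The 95% intervals for DBP-oil against oil-oil were -0.52 to 0.71 for Fst 1372750_at, -1.23 to 0.97 for Inhba 1383486_at and -0.23 to 0.40 for Inhbb. In DBP-DBP against oil-DBP the spike-in level differed between the groups without overlap, so that it and the fetal exposure cannot be told apart.

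With age, 14 of 15 passed beside 64% of all probe sets, a background that leaves little to read from the count. The median of all probe sets was -0.31 as deposited, 0.34 with each array centred on its median and 0.0034 with quantile normalization, and the share of higher ones among all that passed moved from 32.3% to 62.2% with centring. The median of the 15 was -1.59 as deposited. The 11 lower and 3 higher probe sets kept their direction and passed in both other scalings, with Bambi at -0.27 when centred. Extraction differed with age: every GD20 sample was prepared with Trizol and 14 of 16 PND35 samples with a column kit. The 1 oil-oil pup prepared with Trizol, 104, read 325 for Amh, 24.0 for Inhba 1383486_at and 1322 for Inhbb, between the other pups of its group. It was the lowest of its group for Fst 1372750_at (16.9), Acvr1 1379217_at (82.5), Acvr1 1385069_at (162), Acvr2a (457) and Bambi (670). For Fst 1387843_at (132) and Fstl3 1370120_at (536) it was the highest. The spike-in level differed between the ages without overlap, and cannot be told apart from age.

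The cells also differed with age by their markers. In oil-oil pups against GD20 oil, all 8 Leydig markers were lower, 5 of 6 peritubular markers were lower, and of 11 Sertoli markers 6 were higher and 5 lower, beside 44.7% of genes lower and 29.5% higher. All 5 endothelial markers were lower, of 9 leukocyte markers 5 were lower and 1 higher, and all 4 measured germ cell genes were higher, by a median of 7.46. The summed Leydig intensity was 62117 to 65383 in GD20 oil and 15840 to 21398 in oil-oil. The summed Sertoli intensity was 19615 to 21150 and 53892 to 65111. Each sum takes a gene's brightest probe set at its own age, so the probe sets summed can differ between the ages. The brightest genes weigh most in a sum. The part of these cells in the age differences of the axis was not tested.

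**Figure D4:**
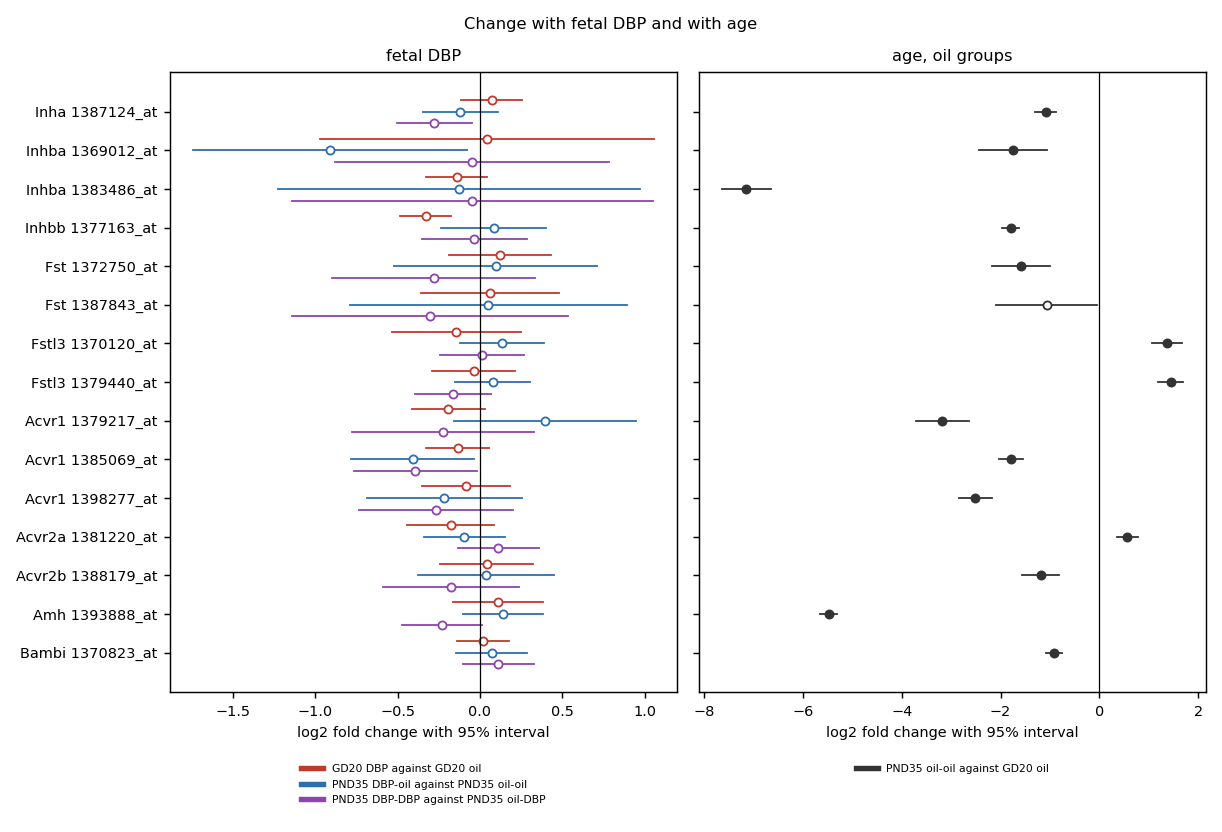
Log2 difference of each probe set (x axis, point with 95% interval) for 3 comparisons of fetal DBP with oil (left) and for oil-oil pups against GD20 oil (right); filled points passed an adjusted p of 0.05. No point on the left is filled, while 14 of 15 on the right are, and the x axes have different scales.

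Around the 10 genes, 72 genes of the wider TGF-beta family and its control were listed in 6 groups, of which 64 were measured, each by its brightest probe set. The lists were chosen with earlier results of these data known. Their counts are a description, also for the oil-DBP pups, and no response of the family is read from them. In DBP-DBP against DBP-oil pups 7 were higher and 1 lower, beside 5.13% and 2.14% of 14217 genes. Of 10 measured Smad target and feedback genes 3 were higher: Ccn2, a matricellular growth factor (1.99 ± 0.18), Pmepa1, a feedback inhibitor of Smads (0.62 ± 0.17), and the corepressor Tgif1 (0.32 ± 0.079), with limma adjusted p of 2.35e-07, 0.034 and 0.015. Of 13 wider family ligands Bmp2 (1.35 ± 0.31) and Tgfb3 (0.60 ± 0.15) were higher, with limma adjusted p of 0.0093 and 0.018. Of 11 Smads and their regulators Smad1, which serves BMP receptors, was higher (0.87 ± 0.18, limma adjusted p = 0.0047). The group medians were 0.20, 0.03 and 0.001, beside -0.07 over all genes.

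Among 11 genes of FSH and cyclic AMP control of inhibin genes, Pde4b, a cyclic AMP phosphodiesterase, was higher in DBP-DBP (0.66 ± 0.18) and the nuclear receptor Nr5a1 was lower (-0.95 ± 0.21), with limma adjusted p of 0.033 and 0.0072. None of 8 other receptors and none of 11 genes listed as other extracellular antagonists passed. Leaving out 1 array at a time gave 3 to 7 higher and 1 to 2 lower, with 3 higher without pup 135 and 4 without any 1 of pups 123, 132 and 133. Without DBP-oil pups 123 and 127 together only Ccn2 (2.06) and Tgif1 (0.40) of the 64 passed, and the other 6 kept their direction at 0.86 (Smad1), 1.16 (Bmp2), 0.53 (Tgfb3), 0.62 (Pmepa1), 0.52 (Pde4b) and -0.74 (Nr5a1). In oil-DBP against oil-oil pups, where 7 were higher and 2 lower beside 6.14% and 5.99% of genes (11 higher without pup 105, 4 lower without pup 115, and 6 to 11 and 1 to 4 over all single arrays left out), the same list gave 1.87 for Ccn2, 1.95 for Bmp2, 0.90 for Tgfb3, 1.00 for Smad1 and -0.95 for Nr5a1. In that contrast Nog (1.32) and Nbl1 (0.58), antagonists of BMPs, and Gata4 (0.45) were the other higher genes and Gdf11 (-0.42) the other lower one. Pmepa1, Tgif1 and Pde4b, higher after fetal DBP, did not pass there.

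The list gave few or no calls for fetal DBP. At GD20, Pde4b (0.56 ± 0.093) and Cited2, a transcriptional coregulator (0.37 ± 0.064), were higher and none of the 64 was lower, beside 0.31% and 0.25% of genes (limma adjusted p = 0.029 and 0.034). Leaving out any 1 of dams 2, 3, 4, 5, 16 or 18 left 0 calls, and without dam 21 there was 1. In DBP-oil against oil-oil, in DBP-DBP against oil-DBP and in the interaction 0 of 64 passed by limma, and 0% of genes. With a limma unadjusted p under 0.05 there were 5, 4 and 4 of 64, beside 7.41%, 8.99% and 4.72% of all probe sets, which is near the background.

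With age 11 of the 64 were higher and 39 lower, beside 29.5% and 44.7% of genes, and 22 and 28 with arrays centred on their median. Of the other receptors Amhr2, the AMH type 2 receptor, was higher (2.08 ± 0.073), and the BMP receptors Bmpr1a (-2.13) and Bmpr2 (-2.06) and the TGF-beta co-receptor Eng (-1.90) were lower. Of the ligands Tgfb2 (-4.46), Bmp2 (-3.03) and Bmp4 (-2.19) were lower and the oocyte and germ cell ligand Gdf9 (2.44) higher. Of the Smads and their regulators 10 of 11 were lower, led by Smad7 (-2.82), Smad9 (-1.69), Smad1 (-1.60) and Smad6 (-1.37). Of the genes listed as antagonists Fstl1 (-3.56), Dcn (-3.30) and Chrd (-2.17) were lower and Igsf1 (3.40) higher. Whether Igsf1 acts as an antagonist was not tested. Of the Smad targets Id4 (3.55) was higher and Id3 (-3.31), Id1 (-2.20) and Pmepa1 (-1.26) lower. Of the cyclic AMP group Crem (3.38) was higher and Nr5a2 (-2.64), Creb1 (-2.31) and Gata4 (-1.97) lower. Each of these genes had a limma adjusted p of at most 0.0046.

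Markers of other cells moved beside the postnatal response. In DBP-DBP against DBP-oil pups, 5 of 6 peritubular myoid markers were higher, led by the actin-binding protein Tagln, and their summed intensity was 4722 to 5042 against 2729 to 3947. Over all genes 5.13% were higher and 2.14% lower. Of 9 leukocyte markers Cd14 (1.14 ± 0.20) and S100a8 were higher, with summed intensities of 2717 to 3601 and 2032 to 2939, which overlap. The leukocyte sum was 2805 to 3857 in oil-oil and 2341 to 3228 in oil-DBP pups. The mean of S100a8 was 430 in DBP-DBP and 12.6, below 16, in DBP-oil, and that of Itgam was below 16 in both groups. Of 5 endothelial markers Kdr was higher (1.14 ± 0.22). Of 11 Sertoli markers Fabp3 was lower (-0.51 ± 0.13), and their sum was 52115 to 57678 against 56190 to 62006; of 8 Leydig markers Cyp17a1 was lower (-0.99 ± 0.24), with sums of 11292 to 13982 and 13231 to 18437. None of 4 germ cell genes passed. In oil-DBP against oil-oil pups, as a description, 4 of 8 Leydig markers were lower and 1 higher. There 2 of 4 germ cell genes were lower and 4 of 6 peritubular markers higher, beside 6.14% of genes higher and 5.99% lower. The Leydig sums were 6839 to 14354 in oil-DBP and 15840 to 21398 in oil-oil, without overlap. The part of these cells in the differences of Fst, Inhba and Inhbb was not tested.

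Over the 16 PND35 arrays the genes most like each subunit and Fst were taken by Pearson's r of log2 values among 9878 genes with a mean intensity of at least 100, as a description. All arrays share the postnatal groups, which set much of any likeness. Fst 1372750_at was closest to Plscr1 (0.989), Ripk2 (0.985) and Itpkc (0.985). Inhba 1383486_at was closest to Hivep2 (0.981), Sdc1 (0.971) and Bcl2l11 (0.963), and Inhbb to Gpsm1 (0.973), Tulp3 (0.964) and Ptprd (0.964). Inha, which did not move with postnatal DBP after fetal DBP, had weaker matches, to Grk6 (0.908), Max (0.907) and Lrrc8a (0.906). No gene was among the first 3 of more than 1 member.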

How the data were processed

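Total RNA of 24 rat testes was hybridised to Rat230_2 arrays, 1 array per sample. The deposited values are linear intensity per probe set, for which the submitters' processing notes name GCOS 1.0; how probes were summarized is not given in the sources used. From the values, the authors scaled each array to the same 2% trimmed mean, and there are no detection calls. A pseudocount of 16 was added to the deposited intensity before log2, which understates changes of dim probe sets; 12.1% to 19.4% of an array's probe sets were below 16. GD20 arrays were used as deposited (their log2 medians spanned 0.079) and PND35 arrays were centred on their median (span 0.155). In R 4.3.3, limma 3.58.1 (lmFit, eBayes with intensity trend) was fitted to the 8 GD20 arrays, to the 16 PND35 arrays in 1 fit with 4 groups, and to both oil groups for age, over 31042 probe sets without 57 controls. The fit was tested on simulated data.

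The members and lists were chosen with earlier results of these data known. Named are all members, up to 4 genes per list and comparison past the threshold by size, and the 3 nearest genes of Fst, Inhba, Inhbb and Inha. Alternatives were other scaling, filters, pseudocounts, spike-in and extraction covariates, pup blocks and left-out arrays; leaving out DBP-oil pups 123 and 127, and fitting the 8 pups with fetal DBP alone, were added after seeing the data. Array number limits the precision.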

Additional observations from a re-analysis of the deposited data

Results flagged for a closer look

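Of 90 sets of 4 arrays (15 probe sets in 6 groups), 5 held an array far from the other 3, with a gap over Dixon's 95% limit; chance gives about 1 in 20 such sets. Inhbb in oil-oil pup 120 read 1723, and the next pup 1380. Fst 1372750_at in DBP-DBP pup 133 read 1192, and the next pup 658. Fstl3 1379440_at in GD20 oil dam 3 read 581, and the next dam 431. Acvr1 1379217_at in oil-DBP pup 121 read 471, and the next pup 302. Bambi in oil-oil pup 120 read 806, and the next pup 687.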

How the results depend on the processing

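The count of axis probe sets past the threshold at GD20 went from 0 to 1 (Inhbb) with quantile normalization. The age count went from 14 to 0 with the spike-in level as a covariate, under which 44 of all probe sets passed; there Inhba 1369012_at turned to 5.56 and Fstl3 1379440_at to -0.53, and the spike-in level does not overlap between the ages. Leaving out 1 array at a time gave 0 to 1 at GD20, 5 to 7 for oil-DBP against oil-oil, 4 to 5 for DBP-DBP against DBP-oil, 14 to 15 with age, and 0 to 0 in the other 3 comparisons. Without dam 18 the GD20 count was 1. In DBP-DBP against DBP-oil the count was 4 under every alternative that leaves out no array, 4 in the 8 arrays with fetal DBP alone, and 3 without DBP-oil pups 123 and 127, where 874 of all probe sets passed against 1623.

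Counts over all probe sets were less stable. At GD20 they were 29 to 42 without any 1 of the oil dams, 74 without dam 16, 175 without dam 18 and 10 without an intensity trend, against 137, and the share of higher ones from 47.4% to 67.8% with median centring. In oil-DBP against oil-oil that share was 53.5%, and 69.2% with arrays as deposited, and the count of 2770 was 4607 without pup 105, 1597 without pup 111 and 1716 without pup 121. The labels give the groups no shared replicate number; with adjacent pup numbers as a block (correlation 0.054) the calls of DBP-DBP against DBP-oil were 4. With 4 arrays a group and many pubertal Inhba values near 16, small changes of dim probe sets are out of reach.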
